A study of Homo sapiens with 8 samples.

Results

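Ligands and receptors that guide migrating cells and axons were measured in buds and bulks of differentiating human stem cells: the Slit and Robo genes, the netrins with their receptors, the DSCAM pair, and the Eph receptors with their ephrins. The 43 genes were taken by name, matched to Ensembl rows through GENCODE release 44, out of 58233 genes in the table. The 8 libraries came from HUES8 (an established line of human embryonic stem cells), taken to stage 5 of a differentiation protocol, and the labels give no genotype or treatment that differs between groups. Bulks (n = 5) are the spheroids of flasks 252, 261, 264, 270 and 274 after small outgrowths were shaken off and filtered away, and buds (n = 3) are the outgrowths of flasks 264, 270 and 274. Each library pools the structures of 1 flask, and all flasks hold 1 cell line, so the spread measured is that between libraries of that line.

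Slits are secreted proteins that bind Robo receptors and mostly repel growing axons. Netrins are laminin-related proteins that attract through DCC and neogenin and repel through UNC5 receptors. Eph receptors are tyrosine kinases that meet ephrins on neighbouring cells: EphA receptors mainly bind ephrins held to the membrane by a lipid anchor (A type), and EphB receptors mainly bind ephrins with a transmembrane domain (B type). Signals run into both cells, and the pairs sort cells and set tissue borders, in epithelia as well as in the nervous system. In the pancreas, Slit and Robo, netrin and Eph genes have been studied in branching, in the sorting of endocrine cells and in insulin release.

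In 5 of the 10 families, among them the UNC5-bearing netrin receptors, the EphA receptors and both ephrin types, some members rose in buds while others fell. Among all genes tested 23.4% rose and 23.8% fell. How often sets of other genes of these sizes held both was not counted, so such splits are not shown to be particular to guidance genes. The widest rise was that of EPHA5 and the widest fall that of EPHB4. Of the 43 genes, 40 passed the expression filter. A quasi-likelihood F test in edgeR, with p adjusted over 16641 genes by the method of Benjamini and Hochberg, called 30 of the 40 at 0.05, where it called 47.2% of genes tested. Of these, 20 rose in buds (23.4% of genes tested rose) and 10 fell (23.8% fell). With flask as a block 19 rose, against 19.5% of genes tested, and 10 fell, against 20.3%. The median log2 fold change of the 40 was 0.96, and that of all genes tested was -0.02. Each of the 20 rises was at least 2-fold, as in 13.8% of genes tested, and 8 of the falls were, as in 12.5%. In 17 of the 40 the buds all lay above the bulks (23.5% of genes tested), and in 10 the buds all lay below them (23.7%). Of the 30 calls, 28 had the same direction in the 3 flasks that gave both samples, the exceptions being SLIT2 and EFNA5 in flask 264. The matching share of all called genes was not counted. In the 17 and 10 genes whose groups did not overlap, the same direction in each flask follows from the ranges. The paired libraries were also among those that made the calls, so the 28 are no separate evidence. In whole-library counts, fewer cells of a type and less RNA per cell cannot be told apart.

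Library totals ran from 6083943 to 12508029 counts, and the bulk of flask 264 lay apart from the other bulks on the second principal component, which held 9.41% of the variance. Marker lists moved with the groups. Of 15 neuron genes 14 rose and none fell, with a summed level of 3777 to 5529.6 CPM in buds and 799 to 1380.1 CPM in bulks; islet endocrine cells are known to express several of them. Of 14 endocrine genes 9 rose (summed level 12935 to 24260.3 CPM in buds and 2384 to 9684 CPM in bulks). CHGA and SST, at means of 7890 and 5733 CPM in buds, were the largest parts of the bud sum. The other 5 endocrine genes, INS, GCG, NEUROD1, INSM1 and SCGN, did not pass. Of 10 epithelial genes 9 fell (1359.6 to 1951 CPM in buds and 3144 to 4299 CPM in bulks), as did 9 of 10 pancreatic progenitor genes (339 to 533 CPM in buds and 1369.9 to 1934 CPM in bulks) and 12 of 12 cell cycle genes (65.7 to 73.2 CPM in buds and 250.5 to 465 CPM in bulks). Of the 5 endothelial genes of 12 that passed the filter, KDR rose and TIE1 and EGFL7 fell, and their list summed to 18.2 to 22.6 CPM in buds and 14.8 to 26.2 CPM in bulks, with ERG at 0 counts in every library and PECAM1 at no more than 0.320 CPM. Of 5 tested neural crest and glial genes NGFR rose and ERBB3 fell (list sums 36.6 to 91.7 CPM in buds and 183 to 276 CPM in bulks, mostly ERBB3), with SOX10 at no more than 0.165 CPM. Mesenchymal genes had 2 higher and 2 lower of 8 tested (42.6 to 127 CPM in buds and 31.5 to 97.5 CPM in bulks). The part of these lists in the results below was not tested.

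**Figure D1:**
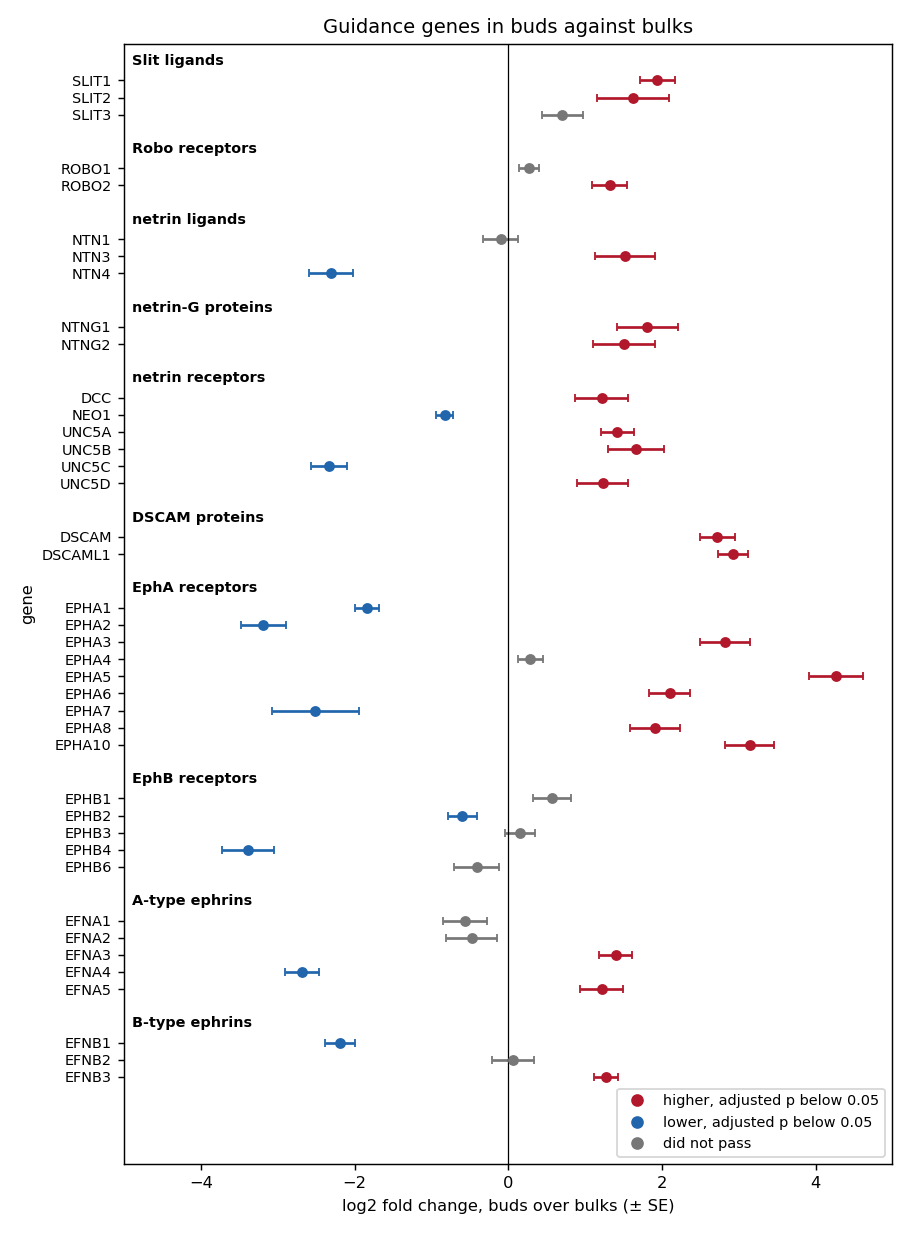
Log2 fold change of buds (n = 3) over bulks (n = 5) for the 40 guidance genes tested, by family; points are edgeR estimates, bars are standard errors, and colours mark genes that passed higher, passed lower or did not pass an adjusted p of 0.05. Red and blue points lie side by side among the netrin receptors, EphA receptors and ephrins; the highest point is EPHA5 at 4.26, and the lowest is EPHB4 at -3.39, in the EphB group, which has no red point.

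Of the 3 Slit ligands, SLIT1 and SLIT2 rose in buds. Values are CPM (counts per 1e+06) on TMM-scaled library sizes, given for bulks in the order of flasks 252, 261, 264, 270 and 274 and for buds in the order 264, 270 and 274. SLIT1 stood at 35.0, 62.0, 45.8, 77.6 and 65.1 CPM in bulks and at 268, 187 and 204 CPM in buds. The lowest bud was above the highest bulk, and SLIT1 rose by 1.94 ± 0.23 on the log2 scale (here and below ± SE; edgeR adjusted p = 8.81e-05). SLIT2 stood at 26.4, 18.9, 65.4, 21.2 and 18.8 CPM in bulks and at 35.3, 126 and 112 CPM in buds. Here the groups overlapped, the bulk of flask 264 lying above the bud of the same flask. The SLIT2 estimate was 1.62 ± 0.47 (edgeR adjusted p = 0.0154). With flask as a block it did not pass (1.52, edgeR adjusted p = 0.176), nor without the bud of flask 270 (0.0687) or of 274 (0.0574); without the bulk of flask 264 it was 2.10 (0.000769). SLIT3 stood at 20.4, 13.2, 16.0, 30.4 and 21.8 CPM in bulks and 45.3, 29.1 and 25.9 CPM in buds, with the bud of flask 264 highest. Its estimate of 0.70 ± 0.27 missed the threshold (edgeR adjusted p = 0.0510). It passed with DESeq2 (adjusted p = 0.0292), RLE factors (0.0464), unscaled libraries (0.0489) or no expression filter (0.0211), and when bulk 270 (0.0125) or bud 274 (0.0442) was left out.

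Of the Robo receptors, ROBO1 was the most abundant and ROBO2 was the one that rose. ROBO1 stood at 211, 175, 207, 166 and 179.6 CPM in bulks and 205, 209 and 263 CPM in buds, ranges that overlapped, and did not pass (0.27 ± 0.13, edgeR adjusted p = 0.126). ROBO2 ran from 19.7 to 49.2 CPM in bulks and 90.7 to 92.8 CPM in buds, with the buds close together, and rose by 1.32 ± 0.22 (edgeR adjusted p = 0.000761). ROBO3, a divergent family member of commissural neurons, was below the filter with at most 9 counts in a library. ROBO4, known from endothelium, had 0 counts in all 8 libraries, which allows up to 0.240 to 0.493 counts per 1e+06 by library (3 counts; counting error only).

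Of the 3 netrin ligands tested, NTN3 rose and NTN4 fell. NTN1, the best-studied secreted netrin, stood at 18.1, 24.2, 14.8, 25.3 and 15.3 CPM in bulks and 14.8, 22.2 and 17.6 CPM in buds. Those ranges overlapped almost fully, and the estimate was -0.10 ± 0.22 (edgeR adjusted p = 0.734), near 0 with a sign that turned under some alternatives. NTN4, a netrin of basement membranes that binds laminins, stood at 10.97, 15.5, 10.1, 7.78 and 8.86 CPM in bulks and 1.89, 2.55 and 1.93 CPM in buds. Each bud was below each bulk, and NTN4 fell by 2.31 ± 0.29 (edgeR adjusted p = 0.000116). NTN3 rose by 1.52 ± 0.39 (edgeR adjusted p = 0.00803) but from a low level, 0.797 to 3.63 CPM in bulks and 4.82 to 5.27 CPM in buds. NTN5 had at most 7 counts in a library and was not tested.

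The netrin-G genes encode lipid-anchored proteins that bind partners of the LRRC4 family instead of DCC. NTNG2, the more abundant, stood at 11.5, 14.9, 8.07, 30.6 and 20.6 CPM in bulks and 29.9, 78.7 and 38.9 CPM in buds. The bud was above the bulk in each paired flask, while the bulk of flask 270 was slightly above the bud of 264. NTNG2 rose by 1.51 ± 0.40 (edgeR adjusted p = 0.0105; 0.0698 without the bud of flask 270). NTNG1 ran from 1.81 to 8.70 CPM in bulks and 12.8 to 18.7 CPM in buds and rose by 1.81 ± 0.40 (edgeR adjusted p = 0.00377).

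DCC and neogenin, related receptors that share netrin as a ligand, went in opposite directions. DCC stood at 204, 92.7, 92.8, 245 and 254 CPM in bulks and 303, 403 and 534 CPM in buds. All buds were above all bulks, although the bulks of flasks 261 and 264 held less than the other bulks. DCC rose by 1.22 ± 0.35 (edgeR adjusted p = 0.0147; 0.0697 without the bud of flask 274). NEO1 (neogenin, also a receptor for RGM proteins) stood at 298, 257, 314, 297 and 285 CPM in bulks and 172, 151 and 167 CPM in buds. Both groups were tight and did not overlap, and NEO1 fell by 0.83 ± 0.11 (edgeR adjusted p = 0.000212).

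Of the UNC5 receptors, which mediate repulsion by netrins, 3 rose and UNC5C fell. UNC5C stood at 258, 220.1, 318, 162 and 223 CPM in bulks and 58.4, 35.6 and 46.6 CPM in buds, 5.04-fold lower by the group means. It fell by 2.34 ± 0.24 (edgeR adjusted p = 4.15e-05), with no overlap. UNC5A ran from 17.5 to 36.9 CPM in bulks and 62.1 to 83.5 CPM in buds (1.42 ± 0.21, edgeR adjusted p = 0.000333). UNC5B ran from 7.84 to 30.2 CPM in bulks and 36.2 to 55.8 CPM in buds (1.67 ± 0.36, edgeR adjusted p = 0.00347), its highest bulk being that of flask 264, without which the estimate was 2.10 (3.43e-05). UNC5D, on chromosome 8, ran from 21.6 to 86.6 CPM in bulks and 112 to 167 CPM in buds (1.23 ± 0.33, edgeR adjusted p = 0.0105), and its lowest bulk was that of flask 264. In all 3 the buds lay above the bulks.

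DSCAM and DSCAML1 encode large immunoglobulin-type adhesion proteins of neurons, and DSCAM can also bind netrin. DSCAM stood at 9.78, 11.4, 9.72, 20.5 and 13.5 CPM in bulks and 98.7, 76.9 and 83.9 CPM in buds, 6.67-fold higher by the means. DSCAML1 stood at 5.29, 3.85, 6.26, 7.78 and 5.55 CPM in bulks and 48.0, 42.5 and 41.7 CPM in buds, 7.66-fold higher. The pair changed to a similar size, with gaps between the groups far wider than the spread within either. DSCAM rose by 2.72 ± 0.23 (edgeR adjusted p = 1.89e-05) and DSCAML1 by 2.93 ± 0.20 (edgeR adjusted p = 1.16e-05).

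**Figure D2:**
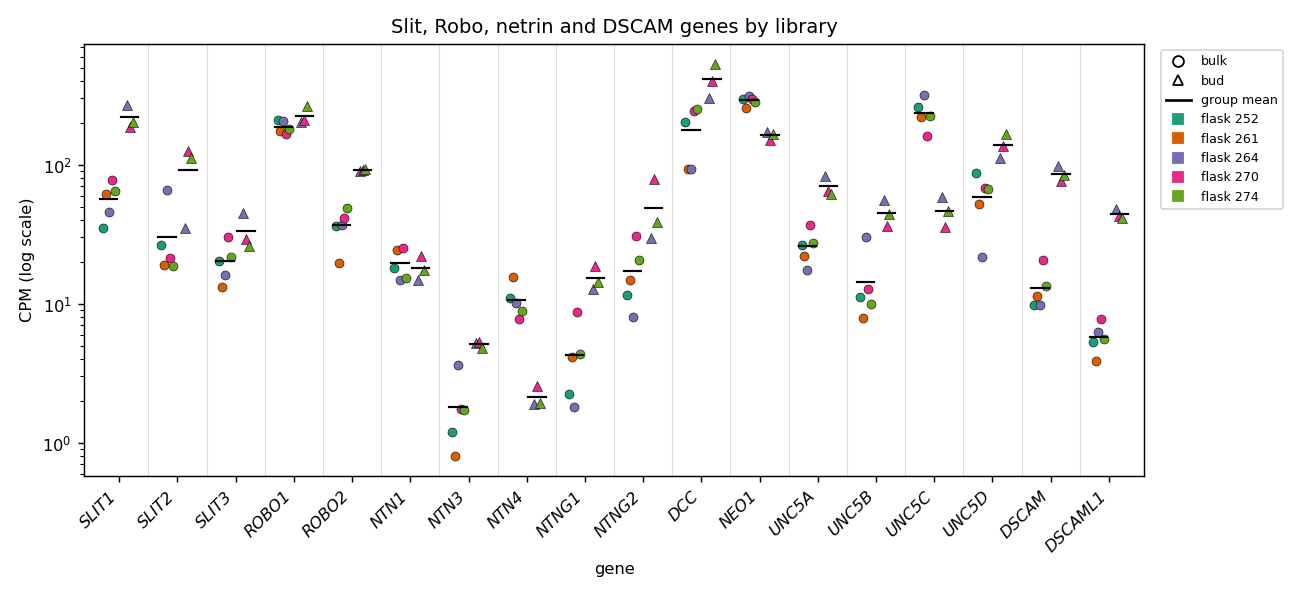
Level in each library (CPM, log scale) of the tested Slit, Robo, netrin, netrin receptor and DSCAM genes; circles are bulks (n = 5), triangles are buds (n = 3), colours are flasks and short lines are group means. The buds sit above the bulks for SLIT1, ROBO2, DCC, DSCAM and DSCAML1 and below them for NTN4, NEO1 and UNC5C, while ROBO1 and NTN1 overlap.

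The widest changes in either direction were in Eph receptors. Since EPHA5 and EPHA3 rose and EPHB4 and EPHA2 fell, the 250 bases before their outermost RefSeq start sites are shown (build GRCh38.p14), as the largest rises and falls among members with an entry. They are written 5′ to 3′ on the gene's strand, with matches to 3 letter strings in capitals on either strand: GGGCGG (the GC box), CAGATG (a core bound by NEUROD and NEUROG factors) and GGAATG (the TEAD core).
EPHA5, chr4:65670490-65670739, minus strand: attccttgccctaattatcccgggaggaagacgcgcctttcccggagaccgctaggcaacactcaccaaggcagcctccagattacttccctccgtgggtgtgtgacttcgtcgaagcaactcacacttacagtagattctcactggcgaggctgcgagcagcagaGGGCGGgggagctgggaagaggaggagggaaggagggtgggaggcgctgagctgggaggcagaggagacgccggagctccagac
EPHA3, chr3:89107371-89107620, plus strand: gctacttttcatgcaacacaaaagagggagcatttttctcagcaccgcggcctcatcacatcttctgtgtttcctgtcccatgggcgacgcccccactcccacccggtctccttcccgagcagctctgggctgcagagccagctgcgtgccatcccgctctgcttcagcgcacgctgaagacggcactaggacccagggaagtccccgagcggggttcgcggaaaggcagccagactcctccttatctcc
EPHB4, chr7:100827524-100827773, minus strand: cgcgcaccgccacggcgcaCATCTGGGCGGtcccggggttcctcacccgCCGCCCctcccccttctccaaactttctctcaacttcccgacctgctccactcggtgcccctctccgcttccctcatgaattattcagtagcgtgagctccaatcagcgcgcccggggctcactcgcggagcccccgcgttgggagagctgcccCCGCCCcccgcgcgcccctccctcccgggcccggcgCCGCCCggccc
EPHA2, chr1:16156070-16156319, minus strand: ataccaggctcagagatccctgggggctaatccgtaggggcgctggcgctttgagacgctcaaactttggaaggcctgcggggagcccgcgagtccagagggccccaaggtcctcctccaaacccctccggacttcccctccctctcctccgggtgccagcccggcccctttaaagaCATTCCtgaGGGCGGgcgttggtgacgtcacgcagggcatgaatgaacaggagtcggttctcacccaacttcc
GC content was 61.2% for EPHA5, 61.2% for EPHA3, 72.8% for EPHB4 and 63.2% for EPHA2, against a median of 58.0% over 35116 RefSeq windows of the same length. The GC box occurred 4 times in EPHB4, 1 time each in EPHA5 and EPHA2, and not in EPHA3. CAGATG occurred 1 time, in EPHB4, where it shares a base with a GC box, and GGAATG 1 time, in EPHA2. RefSeq windows were found for 35 of the 43 genes, 48 windows in all, and the GC box lay in 37 of them (77.1%), against 42.6% of all windows; median GC content was 65.2% in the 48. CAGATG lay in 1 of the 48 (12.2% of all windows) and GGAATG in 1 (11.9%). A match describes the letters of the window and shows no binding.

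Of the 9 EphA genes 5 rose (23.4% of genes tested rose) and 3 fell (23.8% fell). EPHA5 (chromosome 4, 65319563 to 65670495, GRCh38), a receptor of the nervous system that also acts in islet beta cells of mice, stood at 1.06, 0.797, 0.989, 1.92 and 1.71 CPM in bulks and 13.8, 28.7 and 35.1 CPM in buds. It was 19.97-fold higher by the means and rose by 4.26 ± 0.35 (edgeR adjusted p = 1.79e-05), the largest change among the 40. Its bulks held only 6 to 21 counts each, so the fold rests on low bulk counts. A gene on the opposite strand, EPHA5-AS1, shares 5.44% of the exon bases of EPHA5 and held 68 counts against its 912. EPHA10, which lacks kinase activity, stood at 0.925, 1.86, 1.15, 3.11 and 1.49 CPM in bulks and 17.5, 15.7 and 13.8 CPM in buds. EPHA3 stood at 1.59, 1.73, 0.494, 1.83 and 1.71 CPM in bulks and 13.9, 8.82 and 9.47 CPM in buds. Both were low in bulks and higher in each bud than in any bulk, with log2 folds of 3.14 ± 0.32 (edgeR adjusted p = 3.87e-05) and 2.82 ± 0.32 (edgeR adjusted p = 7.36e-05). EPHA6 stood at 3.70, 3.98, 4.28, 3.48 and 6.62 CPM in bulks and 14.2, 16.7 and 25.8 CPM in buds and rose by 2.10 ± 0.26 (edgeR adjusted p = 0.000121). A long non-coding gene on the same strand, ENSG00000261292, shares 10.98% of the exon bases of EPHA6 and held 423 counts against its 795, so reads may be divided between them. EPHA8 ran from 4.89 to 16.8 CPM in bulks and 30.6 to 35.6 CPM in buds (1.91 ± 0.32, edgeR adjusted p = 0.000780).

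EPHA7 and EPHA1, the most abundant EphA genes of every bulk per kb, were among the 3 that fell. EPHA7 stood at 149.6, 159.5, 420.4, 61.3 and 115 CPM in bulks and 47.9, 23.8 and 24.0 CPM in buds. The bulk of flask 264 was far above the rest, and the lowest bulk, of flask 270, was still above the highest bud. EPHA7 fell by 2.51 ± 0.57 (edgeR adjusted p = 0.00432; -1.94, 0.00132 without the bulk of flask 264). EPHA2 (chromosome 1, 16124337 to 16156069), a receptor of epithelial cells, stood at 22.1, 30.6, 37.1, 23.6 and 27.8 CPM in bulks and 4.45, 3.09 and 1.93 CPM in buds, 8.94-fold lower. It fell by 3.19 ± 0.29 (edgeR adjusted p = 2.50e-05). EPHA1, also an epithelial receptor, ran from 55.3 to 73.3 CPM in bulks and 16.0 to 20.6 CPM in buds and fell by 1.84 ± 0.15 (edgeR adjusted p = 1.89e-05). EPHA4, which binds ephrins of both types, ran from 27.2 to 41.7 CPM in bulks and 38.3 to 50.02 CPM in buds, ranges that overlapped, and did not pass (0.28 ± 0.16, edgeR adjusted p = 0.177).

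No EphB gene rose (23.4% of genes tested rose) and 2 of 5 fell (23.8% fell), a family too small to set its counts apart from those shares. EPHB4 (chromosome 7, 100802565 to 100827523), whose main ligand is ephrin-B2, stood at 193, 226, 264, 172 and 152 CPM in bulks and 28.2, 20.4 and 9.55 CPM in buds. It was 10.4-fold lower by the means, and its fall of 3.39 ± 0.34 (edgeR adjusted p = 3.62e-05) was the largest among the 40. EPHB4 and its ligand are best known from arteries and veins. Of the 12 endothelial genes, TIE1 (1.59 to 5.02 CPM in bulks and 0.482 to 0.819 CPM in buds; -2.30 ± 0.45, edgeR adjusted p = 0.00189) and EGFL7 (5.82 to 10.6 CPM in bulks and 3.37 to 5.82 CPM in buds; -0.77 ± 0.27, edgeR adjusted p = 0.0364) fell as EPHB4 did. KDR rose (1.85 ± 0.29, edgeR adjusted p = 0.000467), CLDN5 and ESAM did not pass, and the other 7, at no more than 1.35 CPM in any library, were not tested. Most genes of the epithelial, pancreatic progenitor and cell cycle lists also fell, as given above. The part of any of these lists in the EPHB4 result was not tested. EPHB2 stood at 176, 202, 265, 157 and 152 CPM in bulks and 142, 115 and 119 CPM in buds. The groups did not overlap but lay close, and EPHB2 fell by 0.60 ± 0.19 (edgeR adjusted p = 0.0227; 0.110 and 0.0780 without the bud of flask 270 or of 274). EPHB1 stood at 14.5, 16.6, 10.9, 21.5 and 17.1 CPM in bulks and 16.9, 32.5 and 22.4 CPM in buds, higher in the bud of each paired flask. Its estimate of 0.56 ± 0.25 did not pass (edgeR adjusted p = 0.0816) but did with flask as a block (0.53, 0.0346), without the bud of flask 264 (0.0335) and without the bulk of flask 270 (0.0415). Neither EPHB3 (0.15 ± 0.19, edgeR adjusted p = 0.542) nor EPHB6, a family member without kinase activity (-0.41 ± 0.30, edgeR adjusted p = 0.277), passed.

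**Figure D3:**
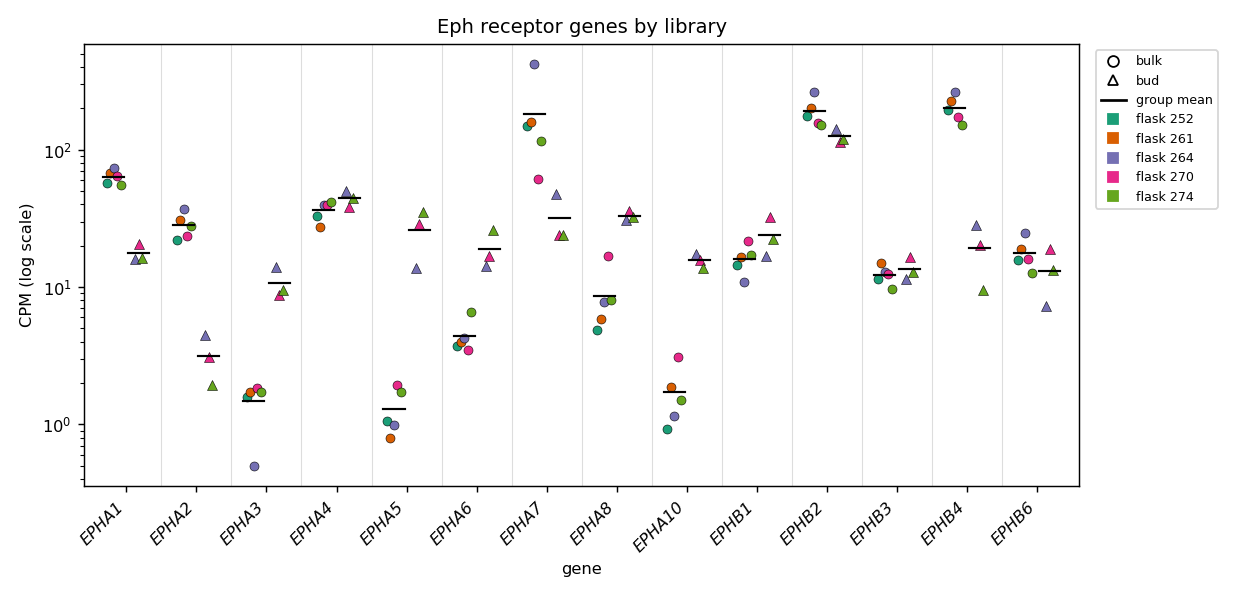
Level in each library (CPM, log scale) of the 14 Eph receptor genes; circles are bulks (n = 5), triangles are buds (n = 3), colours are flasks and short lines are group means. EPHA3, EPHA5, EPHA6, EPHA8 and EPHA10 are higher in every bud than in any bulk, EPHA1, EPHA2, EPHA7, EPHB2 and EPHB4 are lower, and EPHA4 and EPHB3 overlap.

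Of the 8 ephrins, the ligands, 3 rose (23.4% of genes tested rose) and 2 fell (23.8% fell). The share that fell was close to that of all genes. EFNA4 stood at 47.5, 65.9, 55.0, 41.6 and 41.2 CPM in bulks and 8.36, 9.09 and 5.94 CPM in buds, 6.44-fold lower. EFNB1 stood at 45.7, 51.7, 61.3, 41.8 and 45.8 CPM in bulks and 13.3, 10.4 and 8.75 CPM in buds, 4.55-fold lower. In both genes the bulks and buds formed separate groups. EFNA4 fell by 2.69 ± 0.22 (edgeR adjusted p = 1.85e-05) and EFNB1 by 2.19 ± 0.19 (edgeR adjusted p = 2.17e-05). EFNB3, a B-type ephrin of the nervous system, stood at 61.5, 69.2, 53.6, 74.2 and 60.5 CPM in bulks and 118, 186 and 158 CPM in buds. Every bud was above every bulk, and EFNB3 rose by 1.27 ± 0.16 (edgeR adjusted p = 0.000121). EFNB2, the ligand of EPHB4, stood at 62.4, 61.1, 124, 53.3 and 105 CPM in bulks and 82.8, 72.3 and 97.9 CPM in buds. Its bulks spread over a wider range than its buds, and the estimate was 0.06 ± 0.27 (edgeR adjusted p = 0.880), with a sign that turned under some alternatives.

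EFNA5, a ligand of several EphA receptors, stood at 12.8, 12.1, 25.7, 10.8 and 14.6 CPM in bulks and 23.6, 40.0 and 41.1 CPM in buds. The bulk of flask 264 was again the highest bulk and was above the bud of that flask. EFNA5 rose by 1.21 ± 0.28 (edgeR adjusted p = 0.00508) but did not pass with flask as a block (1.10, edgeR adjusted p = 0.0811); without the bulk of flask 264 it was 1.48 (0.000266). EFNA3 ran from 6.94 to 9.72 CPM in bulks and 17.3 to 30.6 CPM in buds and rose by 1.40 ± 0.22 (edgeR adjusted p = 0.000458). A read-through gene joins EFNA4 and EFNA3 and covers 43.88% of the exon bases of EFNA3 and 15.04% of those of EFNA4; it held 119 counts against 1057 and 2265, and the division of reads among the 3 is uncertain. EFNA1, the main ligand of EPHA2, ran from 7.69 to 17.1 CPM in bulks and 6.26 to 8.09 CPM in buds (-0.57 ± 0.29, edgeR adjusted p = 0.128). EFNA2 ran from 4.06 to 9.03 CPM in bulks and 3.64 to 5.73 CPM in buds (-0.47 ± 0.33, edgeR adjusted p = 0.264). Neither EFNA1 nor EFNA2 passed, and their ranges overlapped.

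**Figure D4:**
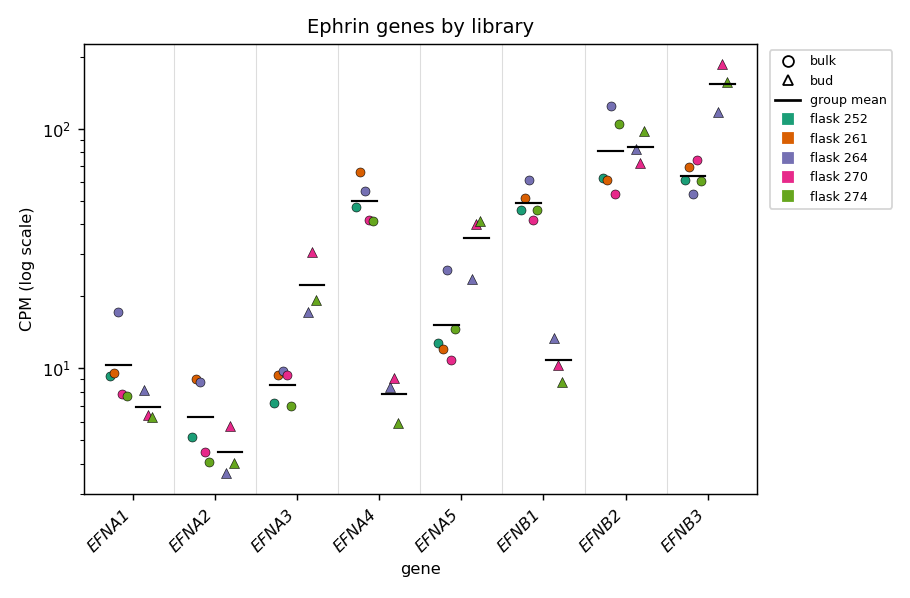
Level in each library (CPM, log scale) of the 8 ephrin genes; circles are bulks (n = 5), triangles are buds (n = 3), colours are flasks and short lines are group means. EFNA4 and EFNB1 lie lower and EFNA3 and EFNB3 higher in every bud than in any bulk, while the other 4 overlap.

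Set per kilobase of the canonical GENCODE transcript, the order of levels differed between groups. In bulks the most abundant were EPHB4 at 46.25 ± 10.3 CPM per kb (SD, n = 5), NEO1 at 40.8 ± 2.99 and EFNA4 at 40.1 ± 8.29, neighbours that did not differ beyond their spread. In buds they were EFNB3 at 47.8 ± 10.7 CPM per kb (SD, n = 3), DCC at 40.6 ± 11.4 and ROBO1 at 32.6 ± 4.70, again within their spread from one to the next. SLIT1 followed in buds at 27.6 ± 5.42 CPM per kb and was at 7.17 in bulks. As a family sum of CPM per kb, Slit ligands held 9.78 to 15.5 in bulks and 42.1 to 42.7 in buds. Netrin ligands held 5.78 to 8.84 in bulks and 5.62 to 6.97 in buds, and netrin receptors 80.8 to 107 in bulks and 102 to 122 in buds. The EphA sum was 45.5 to 103 in bulks and 32.4 to 35.3 in buds, the EphB sum 57.7 to 96.3 in bulks and 24.1 to 30.6 in buds and the A-type ephrin sum 46.0 to 69.9 in bulks and 27.3 to 38.0 in buds. For these 3 the bulks were above the buds, and for Slits the buds were above the bulks. The buds were also above the bulks for Robo receptors (27.6 to 34.8 in bulks and 39.6 to 48.3 in buds). The same held for netrin-G proteins (2.01 to 7.92 in bulks and 8.43 to 19.8 in buds). It held too for DSCAM proteins (1.89 to 3.53 in bulks and 15.2 to 18.5 in buds). The sums of netrin ligands, netrin receptors and B-type ephrins (45.5 to 60.1 in bulks and 57.2 to 75.5 in buds) overlapped. The sums describe levels and were not tested.

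Within families the shares of single members differed between the groups. UNC5C made up 46.7 to 74.2% in bulks and 8.93 to 12.4% in buds of UNC5 CPM per kb, and UNC5A 10.50 to 27.5% in bulks and 36.0 to 45.8% in buds. EPHB4 made up 60.4 to 63.3% in bulks and 9.11 to 23.5% in buds of the EphB level, where EPHB2 made up 21.8 to 24.9% in bulks and 33.9 to 46.9% in buds although its own level fell. Among EphA genes EPHA7 and EPHA1 led in every bulk. EPHA8 made up 1.49 to 7.33% in bulks and 17.3 to 21.7% in buds, and EPHA4, which did not pass, 5.98 to 13.7% in bulks and 18.5 to 22.3% in buds. EFNA4 made up 63.9 to 75.2% in bulks and 16.5 to 24.4% in buds of the A-type ephrin level, and EFNA3 7.43 to 11.00% in bulks and 34.8 to 44.3% in buds. These shares are relative within each library: a share can move because another member moved. The shares, like the order of levels, also rest on the canonical length. That was 11.0 kb for EPHB2 and 4.35 kb for EPHB4, whose mean CPM in bulks were close, at 190 and 201. Which transcripts the cells used was not examined.

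**Figure D5:**
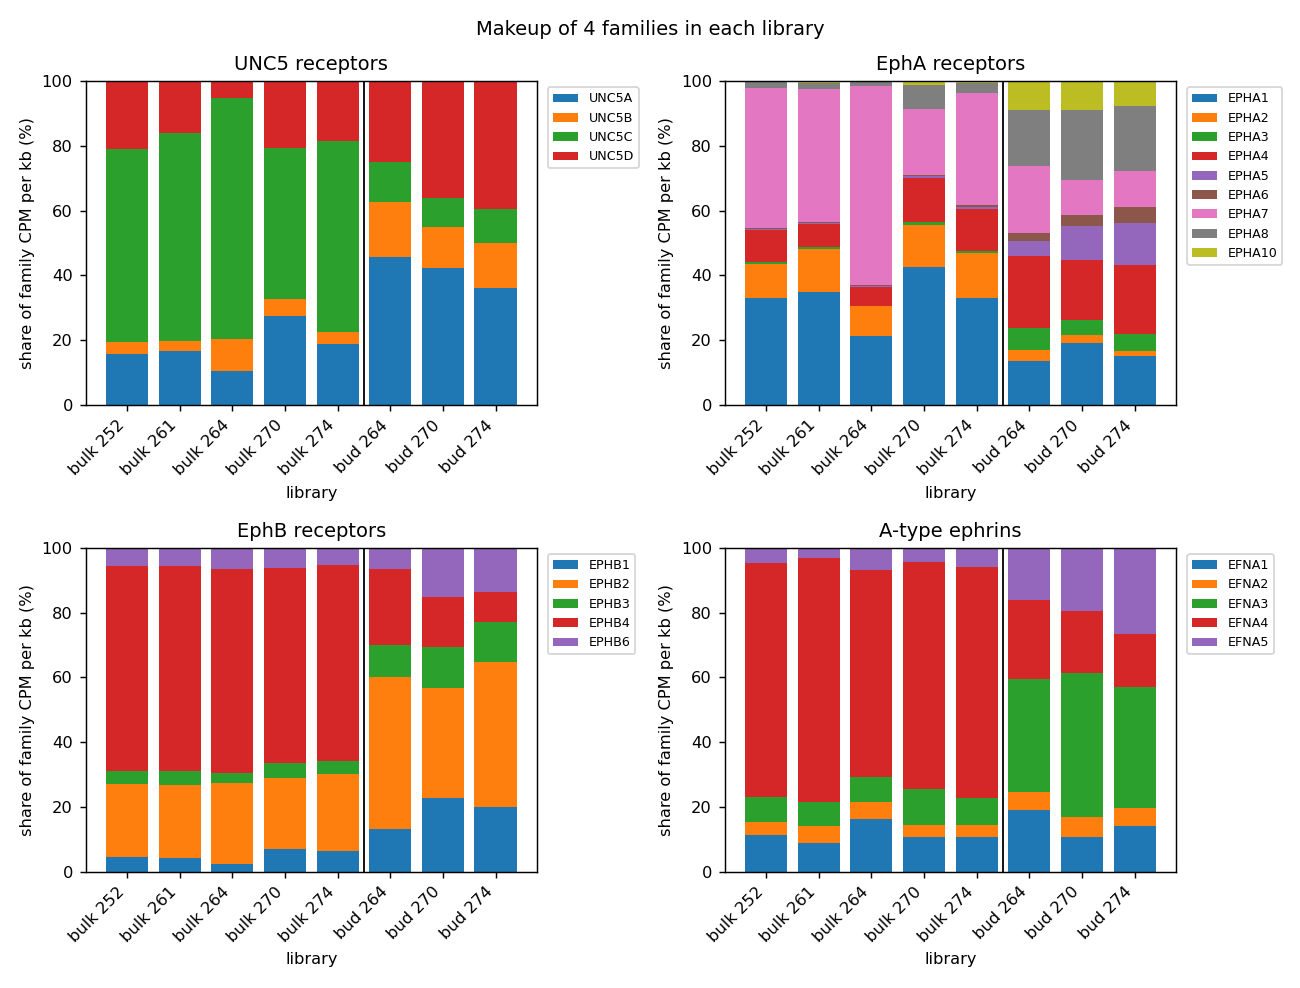
Share of each gene in its family's summed CPM per kb (%), stacked to 100 in each of the 5 bulks (left of the line) and 3 buds (right of it), for UNC5 receptors, EphA receptors, EphB receptors and A-type ephrins. UNC5C, EPHB4 and EFNA4 take the largest block in every bulk and a smaller one in every bud.

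Genes that carry these signals inside the cell were taken as a list of 41, made with earlier results of these data known, of which 40 were tested. Of these 14 rose, against 23.4% of genes tested, and 9 fell, against 23.8%, so that the falls were about as frequent as among all genes. The median log2 fold change was 0.20. Without the bud of flask 270 the count was 13 higher and 1 lower, where 20.9% and 18.1% of genes tested were called. Among the largest rises were those of ABLIM3 (3.26 ± 0.46, edgeR adjusted p = 0.000257), an actin-binding protein related to the worm guidance protein UNC-115, and of TRIM67 (2.98 ± 0.43, edgeR adjusted p = 0.000286), a ubiquitin ligase that binds DCC in mice. ABLIM3 ran from 0.264 to 2.38 CPM in bulks and 8.76 to 16.7 CPM in buds and TRIM67 from 0.494 to 2.56 CPM in bulks and 5.66 to 15.4 CPM in buds. The falls were smaller than 2-fold. They were led by SRGAP2 (-0.82 ± 0.14, edgeR adjusted p = 0.000844), SOS1 (-0.72 ± 0.19, edgeR adjusted p = 0.00892) and DOCK1 (-0.67 ± 0.20, edgeR adjusted p = 0.0191), regulators of small GTPases. SRGAP2 binds Robo receptors, as do its relatives SRGAP1 (0.54 ± 0.11, edgeR adjusted p = 0.00284) and SRGAP3 (1.50 ± 0.19, edgeR adjusted p = 0.000116), which rose and were chosen for mention after their values were seen. The GTPases themselves did not pass: RHOA had -0.02 ± 0.12 (edgeR adjusted p = 0.897), RAC1 0.05 ± 0.13 (edgeR adjusted p = 0.761) and CDC42 0.12 ± 0.14 (edgeR adjusted p = 0.530), likewise named after their values were seen. The DOCK1 fall was lost without the bud of flask 270 or of 274, and that of SOS1 without the bud of 270 (edgeR adjusted p = 0.104, 0.0834 and 0.0511).

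Of 15 extracellular partners and co-receptors 7 rose (23.4% of genes tested rose) and 4 fell (23.8% fell), with a median log2 fold change of 0.38; the share that fell was close to that of all genes. FLRT1, of a family that binds UNC5 receptors, rose by 3.20 ± 0.33 (edgeR adjusted p = 4.15e-05), at 1.33 to 4.40 CPM in bulks and 17.6 to 24.5 CPM in buds. LRRC4C, the ligand of netrin-G1, rose by 1.58 ± 0.25 (edgeR adjusted p = 0.000509), and RGMA, a ligand of neogenin, by 1.51 ± 0.13 (edgeR adjusted p = 2.21e-05). LRRC4, of the same family as LRRC4C, fell instead (-0.69 ± 0.19, edgeR adjusted p = 0.0120) and was named after its value was seen. The LRRC4 call was lost with flask as a block (edgeR adjusted p = 0.0890) and without the bud of flask 270 (0.0632). Syndecans, cell-surface proteoglycans that carry heparan sulfate, were divided. SDC4 fell by 2.96 ± 0.40 (edgeR adjusted p = 0.000189), at 137 to 219 CPM in bulks and 11.2 to 43.0 CPM in buds, and SDC1 by 2.25 ± 0.19 (edgeR adjusted p = 1.86e-05), while SDC3 rose by 1.44 ± 0.25 (edgeR adjusted p = 0.000880) and SDC2 by 0.61 ± 0.18 (edgeR adjusted p = 0.0188), these last 2 named after their values were seen. The SDC2 call was lost with flask as a block (edgeR adjusted p = 0.0662), in the paired flasks alone (0.0655) and without the bud of flask 274 (0.0533). The other large fall was that of FLRT2, by 1.78 ± 0.28 (edgeR adjusted p = 0.000446), at 174 to 355 CPM in bulks and 64.6 to 98.1 CPM in buds.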

How the data were processed

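RNA from 5 bulks and 3 buds was sequenced as poly(A)-selected, paired-end libraries, per the labels' protocols. The authors deposited expected counts per Ensembl gene, which RSEM had estimated from STAR alignments to GRCh38, per the submitters' processing notes. For versions, annotation release and strand setting, the sources used here name none. RSEM divides reads between genes, so 11.5% of values were not whole (tolerance 1e-06); they were rounded. Of 58233 genes, 57392 (98.6%) matched GENCODE release 44. Without strand, reads of overlapping opposite genes cannot be told apart; shared exon bases with counted genes were at most 5.44% of a tested member on the opposite strand.

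The comparison used edgeR 4.0.16 under R 4.3.3 (TMM, default filter with minimum count 10 and total 15, quasi-likelihood F test, Benjamini-Hochberg threshold 0.05, no covariate); the test was tried on simulated counts. SE is the estimate divided by the root of F. Members, lists and the naming rule were chosen with earlier results of these data known. Values in every library are given for the 14 largest changes, the most abundant member per kb of each of 10 families, and members whose call or sign changed with the block or without 1 library; lists are described by their 3 largest rises and falls, of which 1 effector gene is not reported here. Promoter strings were chosen after values were seen. Alternatives were DESeq2 1.42.0, RLE or no scaling, no filter or at least 1 CPM in 3 libraries, flask as a block, paired flasks alone, and leaving out each library. By label, the buds share their flask with the bulks numbered 264, 270 and 274, with deviations correlated at 0.123, 0.134 and 0.295, against -0.245 to 0.194 between different flasks. The pairing was taken from the shared flask in the labels; the correlations alone do not separate same from different flasks. No 2 libraries of a group matched within sampling noise (lowest chi-square per gene 8.58).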

Additional observations from a re-analysis of the deposited data

Results flagged for a closer look

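Of the 40 tested guidance genes 8 had 1 bulk standing away from the remaining 4: its gap to the nearest bulk exceeded 0.71 of their whole range. About 1 in 20 groups of independent, normally distributed values reach that size by chance. Here CPM were used without logs, and genes measured in the same libraries are not independent. The count of 8 therefore cannot be set against that rate. The rule was not run on other genes, so whether these counts are particular to guidance genes was not tested. In 6 of the 8 the bulk standing away was that of flask 264. It was the highest bulk for SLIT2 (65.4 CPM against 18.8 to 26.4 in the other bulks), UNC5B (30.2 against 7.84 to 12.8), EPHA7 (420.4 against 61.3 to 159.5), EFNA1 (17.1 against 7.69 to 9.56) and EFNA5 (25.7 against 10.8 to 14.6). For EPHA3 it was the lowest, at 0.494 CPM against 1.59 to 1.83. EPHA6 stood at 6.62 CPM in the bulk of flask 274 against 3.48 to 4.28 in the others, and EPHA8 at 16.8 CPM in the bulk of flask 270 against 4.89 to 8.01.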

How the results depend on the processing

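Of the 30 calls, 25 (16 higher and 9 lower) were made the same way under all 15 alternatives. How many of all 7861 called genes kept their call under every alternative was not counted. The other guidance genes called, SLIT2, NTNG2, DCC, EPHB2 and EFNA5, each lost the call in at least 1 alternative, as given above. Over the fits that left out 1 library, 18 to 22 guidance genes were higher, against 18.7 to 23.8% of all genes tested. In those fits 9 to 10 were lower, against 18.1 to 24.3% of all genes tested. With flask as a block 19 were higher and 10 lower, against 19.5% and 20.3%. The block changed no other guidance gene's call than those of SLIT2, EFNA5 and EPHB1; among effectors and partners it lost VASP, EVL, ITSN1, LRRC4 and SDC2 and gained CHN2 and FLRT3. It called 6621 genes, against 7861 without it. The effector count, 23 in all, ran from 14 to 24 and the partner count, 11, from 10 to 12 when 1 library was left out. Estimates near 0 turned sign. NTN1 was at 0.0025 with flask as a block and 0.016 in the paired flasks alone, and between -0.23 and 0.022 without 1 library. EFNB2 was at -0.084 and -0.071 in those 2 fits and between -0.068 and 0.26 without 1 library; the cause was not tested. No estimate of a tested guidance gene moved by over 1.5-fold under any alternative. Low counts limit ROBO3, ROBO4 and NTN5, and with 3 buds of 1 line small changes may be missed.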
